A study of Mus musculus with 42 samples.

Results

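The interleukin 1 (IL-1) family was described here by the transcripts of 10 of its ligands, receptors and inhibitors in mouse liver: Il1a, Il1b, Il18 and Il33 (ligands), Il1r1, Il1rap and Il1rl1 (signalling receptor chains), and Il1rn, Il1r2 and Il18bp (inhibitors). The genes were taken by symbol from the 54446 genes of the count table, and all 10 were among the 15574 genes with enough counts to be tested. The livers came from 42 female APOE*3-Leiden mice, a transgenic strain that carries a human variant of apolipoprotein E3 and develops high plasma cholesterol on a fatty diet. All groups shared this transgene and sex, and each mouse gave 1 library of polyadenylated RNA at 32 weeks. A reference group of 10 mice stayed on chow. A group of 16 mice received a Western-type diet (WTD) with cocoa butter (15%), sucrose (40.5%) and cholesterol (1%), which was started 3 weeks before baseline at an age of 8 to 14 weeks and supplemented with 0.05% sodium cholate from week 22. The other 16 WTD-fed mice also received atorvastatin, a cholesterol-lowering statin, at 3.0 mg/kg/day and at 4.5 mg/kg/day from week 5. The chow-fed mice carried another label prefix (AZ) than both WTD-fed groups (Gen), so anything that goes with that prefix cannot be told apart from the diet.

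IL-1 alpha and IL-1 beta bind the receptor IL-1R1, which then recruits the accessory protein encoded by Il1rap and signals through MyD88 and NF-kappaB. The accessory protein serves the IL-33 receptor ST2 (Il1rl1) as well, whereas IL-18 uses its own receptor pair. IL-1 beta and IL-18 are made as inactive precursors that caspase-1 cleaves in inflammasomes, and IL-1 alpha and IL-33 are released from damaged cells as alarmins. The family is held in check by the receptor antagonist encoded by Il1rn, by the decoy receptor IL-1R2 and by IL-18 binding protein, and in the liver it is known for driving acute phase genes in hepatocytes. mRNA levels do not show how much cytokine was cleaved or released.

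Total gene counts ranged from 15661381 to 36224054 per liver, and levels are given as CPM, the counts of a gene relative to the TMM-scaled total. In 8 libraries over 20% of the genes at a mean of 1 to 2 CPM in their group had no count at all, and these are called sparse libraries here (chow replicates 2, 5 and 6, WTD replicates 8, 9, 10 and 16, and WTD + atorvastatin replicate 8). The weakly expressed members touch this limit, so values without the sparse libraries are given for several genes. Another mouse, WTD replicate 15, stood apart from the other WTD-fed mice in its cell markers, with 1130 CPM of summed macrophage markers against 1680 to 2530 CPM and 98300 CPM of hepatocyte markers against 47700 to 67700 CPM. The sum of 6 hepatocyte markers, led by Alb, was by far the highest of the 12 cell type lists in each group. Since the samples were whole liver, fewer cells of a type and less RNA per cell cannot be told apart.

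Some of the genes lie close to each other. On chromosome 1 (GRCm38) 3 receptor genes lie on the plus strand of a wider cluster, Il1r2 at 40074079 to 40125231, Il1r1 at 40225080 to 40317257 and Il1rl1 at 40429570 to 40465415. On chromosome 2, Il1rn occupies 24336853 to 24351494 on the plus strand, while Il1a (129299610 to 129309972) and Il1b (129364570 to 129371139) lie close together on the minus strand. Il18bp lies on chromosome 7 (102014885 to 102018690, minus strand), Il18 on chromosome 9 (50554827 to 50581840), Il1rap on chromosome 16 (26581704 to 26730117) and Il33 on chromosome 19 (29925114 to 29960718), each on the plus strand. None of their exon bases lay under another gene on the same strand. Of the 11360 exon bases of Il1rap, 8711 lay under Gm20319 on the opposite strand.

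The promoters of 5 members are shown because these genes gave the clearest rises on the WTD (Il1a, Il1rn, Il18bp) or are the classical inflammasome substrates (Il1b, Il18). Each window runs from 250 bases before to 50 bases after a RefSeq start (GRCm38.p6), 5′ to 3′ on the strand of the gene, and capitals mark matches to the motifs searched on both strands. These are a TATA box (TATAAA, in 13.6% of 32851 such promoters), a PU.1 core (GAGGAA, 28.3%), a kappaB site (1.63%), a C/EBP site (TTGCNNAA, 10.8%) and a pair of interferon response half-sites (3.44%, no match in these 5 windows). The windows are chr2:129309923-129310222 for Il1a (minus strand), chr2:129371090-129371389 for Il1b (minus strand), chr2:24345041-24345340 for the second of 3 Il1rn starts (plus strand), chr9:50554450-50554749 for Il18 (plus strand) and chr7:102018183-102018482 for Il18bp (minus strand).
Il1a: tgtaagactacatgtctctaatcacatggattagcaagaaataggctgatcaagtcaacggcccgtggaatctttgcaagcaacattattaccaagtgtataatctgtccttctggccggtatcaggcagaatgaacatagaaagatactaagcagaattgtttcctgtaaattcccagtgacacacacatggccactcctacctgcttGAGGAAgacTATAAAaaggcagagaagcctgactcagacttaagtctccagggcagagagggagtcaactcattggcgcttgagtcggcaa
Il1b: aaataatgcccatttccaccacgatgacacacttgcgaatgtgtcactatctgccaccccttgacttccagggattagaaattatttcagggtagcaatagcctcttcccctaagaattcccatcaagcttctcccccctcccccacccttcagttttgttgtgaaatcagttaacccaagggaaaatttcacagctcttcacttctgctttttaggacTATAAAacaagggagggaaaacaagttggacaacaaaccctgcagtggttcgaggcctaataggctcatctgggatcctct
Il1rn: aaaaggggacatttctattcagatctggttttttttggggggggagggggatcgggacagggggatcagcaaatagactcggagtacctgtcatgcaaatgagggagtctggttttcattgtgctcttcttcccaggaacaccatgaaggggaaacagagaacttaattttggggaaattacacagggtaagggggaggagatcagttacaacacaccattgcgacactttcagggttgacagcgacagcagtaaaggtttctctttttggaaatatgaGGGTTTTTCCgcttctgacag
Il18: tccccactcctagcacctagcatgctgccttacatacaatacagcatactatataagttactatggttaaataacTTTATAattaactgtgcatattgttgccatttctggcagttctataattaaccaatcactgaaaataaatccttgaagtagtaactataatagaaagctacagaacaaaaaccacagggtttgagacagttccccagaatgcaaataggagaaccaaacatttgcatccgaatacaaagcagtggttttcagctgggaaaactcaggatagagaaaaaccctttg
Il18bp: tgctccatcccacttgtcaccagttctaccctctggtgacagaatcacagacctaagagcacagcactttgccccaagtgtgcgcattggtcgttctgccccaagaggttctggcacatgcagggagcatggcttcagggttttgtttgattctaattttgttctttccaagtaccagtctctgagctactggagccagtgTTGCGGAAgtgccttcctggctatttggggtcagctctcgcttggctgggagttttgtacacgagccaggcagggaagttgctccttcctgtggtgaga
Il1a and Il1b carried a TATA box that began 32 and 31 bases before the start, and in Il1a a PU.1 core lay just before it. In Il1rn a kappaB match began 29 bases after the start shown. Of its 3 RefSeq starts this one was printed for that match, which lies 51 bases before the third start, and the first start had no match to any of the motifs. Il18bp held a C/EBP match 49 bases before its start, and Il18 held only a TATA match on the other strand, 175 bases before the start. A match is a run of letters and was not tested for binding.

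Levels of different genes were compared as CPM per kilobase of exon. On chow Il18 stood highest at 17.1 ± 5.23 CPM per kb (mean ± SD, n = 10), followed by Il1rap at 10.0 ± 0.877 CPM per kb. Il1r1 and Il18bp came next at 4.68 ± 2.66 and 4.54 ± 1.08 CPM per kb, which overlapped within 1 SD. Il1a and Il1b were alike in level (2.49 ± 1.39 and 2.43 ± 1.26 CPM per kb), Il1rn and Il33 were near 1 CPM per kb, and the decoy Il1r2 and the IL-33 receptor Il1rl1 were near the limit of detection. On WTD the order changed at the top. Il18bp led with 19.0 ± 2.84 CPM per kb (n = 16), above Il18 at 10.8 ± 3.67 CPM per kb, and the next genes (Il1r1, Il1a, Il1rn, Il1rap and Il1b) each overlapped their neighbour within 1 SD. With atorvastatin Il18bp (16.4 ± 2.55 CPM per kb, n = 16) and Il18 (15.5 ± 4.88 CPM per kb) overlapped.

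**Figure D1:**
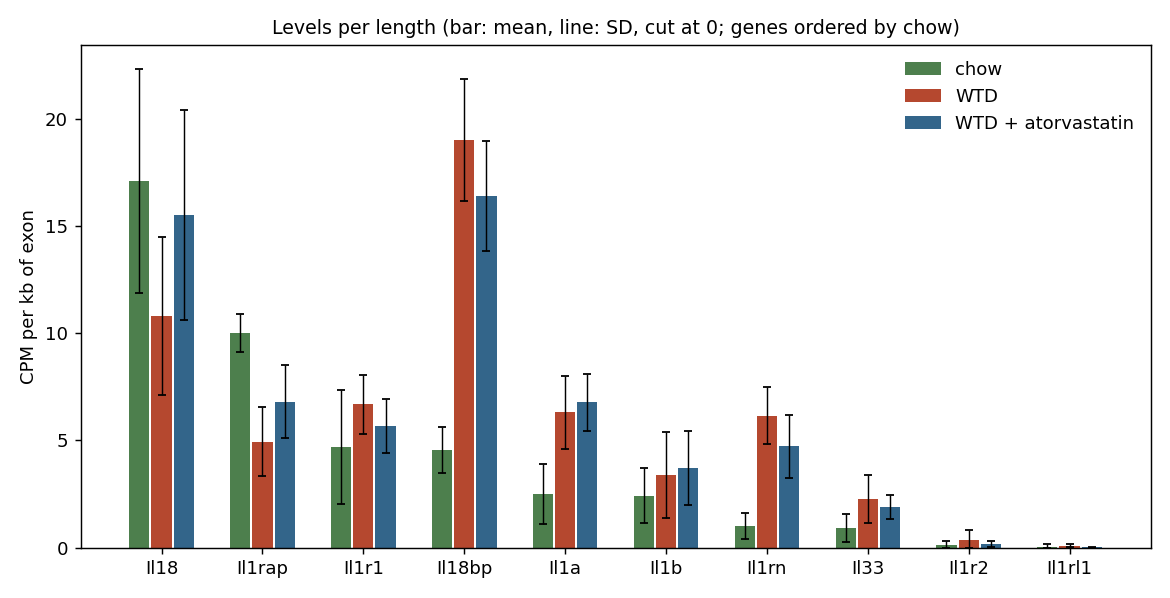
Mean level of each gene in CPM per kilobase of exon (bars) with the SD (lines, cut at 0) in 10 chow-fed, 16 WTD-fed and 16 WTD-fed mice with atorvastatin, ordered by the level on chow. Il18bp passed from 4.54 CPM per kb on chow to 19.0 on WTD, and Il18 from 17.1 to 10.8.

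The first comparison, WTD with chow, asked what the diet that induces steatohepatitis did to the family. Of the 10 genes 7 passed an adjusted p of 0.01, against 33.5% of all tested genes. The 2 soluble inhibitors changed most, as Il1rn was 6.09-fold and Il18bp 4.2-fold higher on WTD. The alarmins Il1a and Il33 were about 2.5-fold higher, and Il1r1 rose by a smaller amount that lay at the threshold. Il18 and the accessory chain Il1rap were lower. Il1b, the ligand best known from inflammasome studies, did not pass the test.

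**Figure D2:**
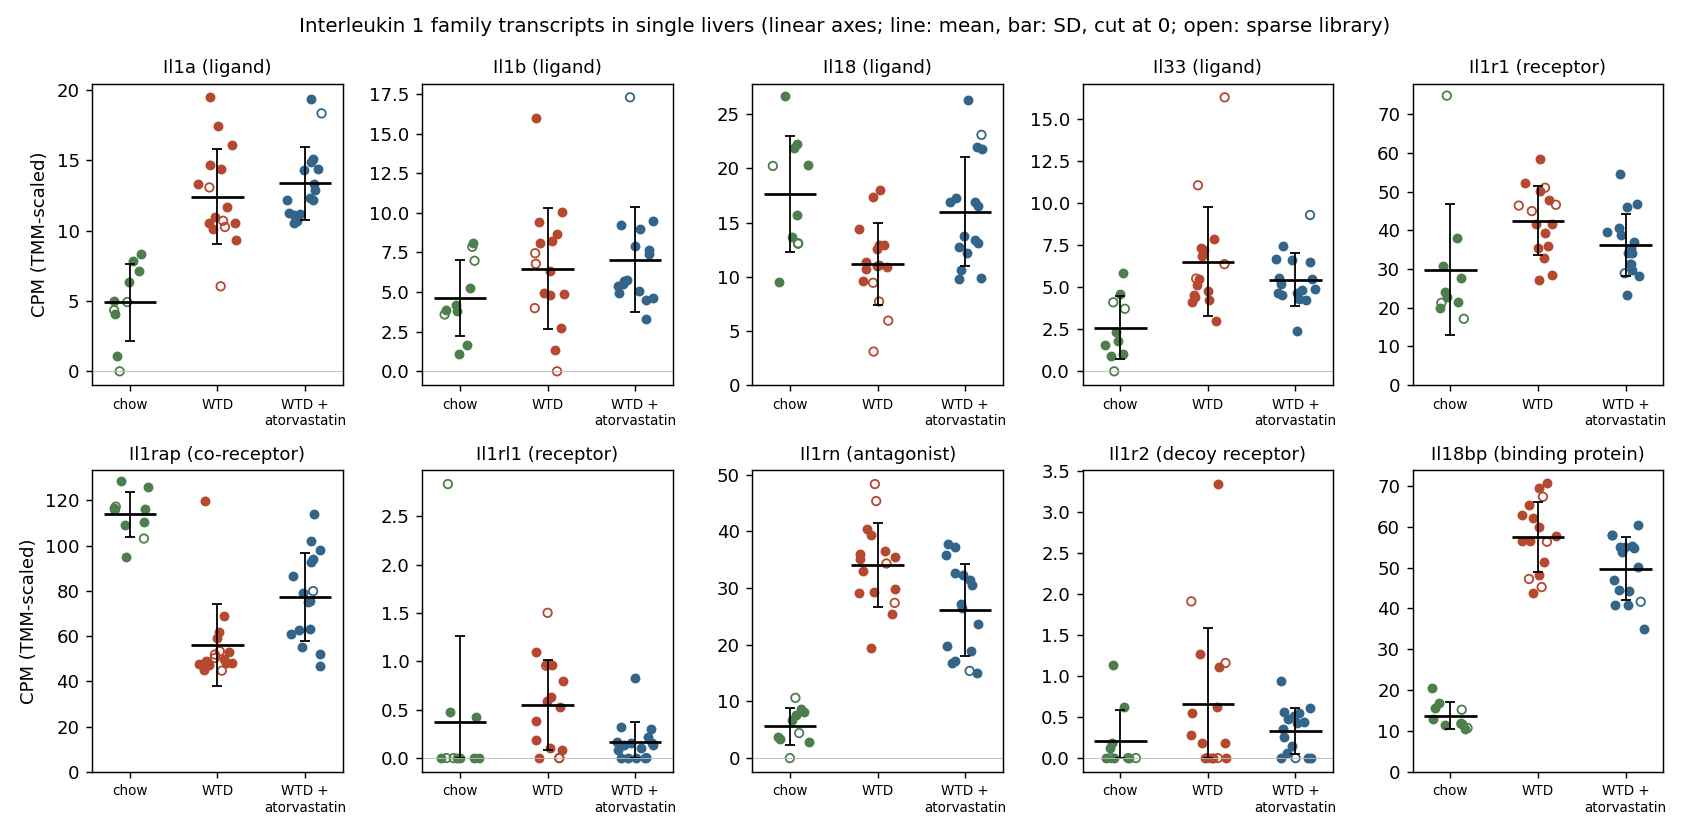
CPM of each gene in single livers on linear axes, with the mean (line) and SD (bar, cut at 0), and open circles for the 8 sparse libraries. Il1rn and Il18bp separated every WTD-fed mouse from every chow-fed mouse, whereas the values of Il1b overlapped widely between the 3 groups. The share of all tested genes with such a separation was not counted.

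Among the ligands, Il1a, an alarmin that acts on IL-1R1, had between 0 and 8.35 CPM on chow (median 4.96) and between 6.05 and 19.5 CPM on WTD (median 11.4). All but 1 of the WTD-fed mice (15 of 16) lay above the highest chow-fed mouse. The log2 fold change was 1.34 ± 0.27 (SE, adjusted p = 6.07e-05), and Il1a passed in each of the 42 fits without 1 of the mice. Of its 1974 exon bases 1818 lie under Gm14023 on the opposite strand, whose log2 fold change was -0.04 (adjusted p = 0.961). The 0 in chow replicate 2 came from a sparse library, and 3 counts there or in the other libraries would correspond to between 0.0781 and 0.204 CPM.

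Il33, the alarmin that acts through ST2, had between 0 and 5.83 CPM on chow (median 2.06) and between 2.96 and 16.3 CPM on WTD (median 5.49). Every WTD-fed mouse lay above the chow median, and 7 of 16 lay above all chow-fed mice. WTD exceeded chow by a log2 fold change of 1.32 ± 0.34 (SE, adjusted p = 0.00119). The highest value came from a sparse library (WTD replicate 16), and without the sparse libraries the log2 fold change was 1.06 (adjusted p = 0.0015).

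Il1b, whose product is the main secreted IL-1, had between 1.12 and 8.07 CPM on chow (median 4.04) and between 0 and 16.0 CPM on WTD (median 6.57). The groups overlapped over most of their range, and 12 of 16 WTD-fed mice lay above the chow median. The log2 fold change was 0.48 with a 95% interval from -0.25 to 1.22 (adjusted p = 0.295), which covers both a small fall and a rise of more than 1 log2 unit. Without the sparse libraries it was 0.84 (adjusted p = 0.0338), still above the threshold. The highest mouse, WTD replicate 14, also had the highest Il1a (19.5 CPM), the highest summed Kupffer cell markers (2380 CPM against 903 to 1910 CPM in the other WTD-fed mice) and the highest neutrophil markers (43.9 CPM).

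Il18, an inducer of interferon gamma that is made in liver without stimulation, had between 9.47 and 26.6 CPM on chow (median 18.0) and between 3.09 and 18.0 CPM on WTD (median 11.0). Of the WTD-fed mice 15 of 16 lay below the chow median, and 4 lay below every chow-fed mouse. This gave a log2 fold change of -0.66 ± 0.19 (SE, adjusted p = 0.0032). Those 4 mice were the sparse WTD libraries, without which, and without the sparse chow libraries, the log2 fold change was -0.55 (adjusted p = 0.0099). Without chow replicate 8, the highest chow-fed mouse, the adjusted p was 0.0128.

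Among the receptors, Il1rap fell on the WTD. It had between 95.0 and 129 CPM on chow (median 116) and between 44.7 and 120 CPM on WTD (median 50.1). Here 15 of 16 WTD-fed mice lay below all chow-fed mice, and the exception was WTD replicate 15 at 120 CPM, where the next WTD-fed mouse had 69.1 CPM. Between the groups the log2 fold change was -1.02 ± 0.13 (SE, adjusted p = 2.92e-09), a 2.03-fold lower level, and it was -1.13 without that mouse. The antisense gene Gm20319, which covers most of the Il1rap exons, fell as well (log2 fold change -0.60, adjusted p = 3.98e-06).

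Il1r1, the signalling receptor for both IL-1 forms, had between 17.1 and 74.8 CPM on chow (median 23.4) and between 27.1 and 58.4 CPM on WTD (median 43.3). All 16 WTD-fed mice lay above the chow median, and none lay above the highest chow-fed mouse, chow replicate 5, which is a sparse library (the next chow-fed mouse had 37.9 CPM). The log2 fold change of 0.51 ± 0.16 (SE) had an adjusted p of 0.00998, just under the threshold, and in only 10 of the 42 fits without a given mouse was it called. Without chow replicate 5 it was 0.77 (adjusted p = 2.62e-06), and without all sparse libraries 0.63 (adjusted p = 0.00063). The lowest value in those 42 fits was 0.44 (adjusted p = 0.0271, without chow replicate 2).

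Il1rl1, the receptor of IL-33, had no count in 7 of 10 chow-fed and in 3 of 16 WTD-fed mice, and its maximum was 2.83 CPM on chow (again chow replicate 5) and 1.5 CPM on WTD. Its log2 fold change of 0.54 had a 95% interval from -1.28 to 2.35 (adjusted p = 0.668). Without chow replicate 5 it was 2.29 (adjusted p = 0.0509). Without all sparse libraries it was 1.89 (adjusted p = 0.103), and with limma-voom 2.44 (adjusted p = 0.0126). The sign was the same in each of these fits, and a difference was not detected at these low counts.

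Among the inhibitors, Il1rn, which occupies IL-1R1 without signalling, had between 0 and 10.6 CPM on chow (median 5.58) and between 19.4 and 48.3 CPM on WTD (median 34.7). The groups did not overlap, and the share of all tested genes without overlap was not counted. On the log2 scale the difference was 2.61 ± 0.29 (SE, adjusted p = 4.11e-10). The lowest WTD-fed mouse was WTD replicate 15.

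Il18bp, which binds free IL-18, had between 10.6 and 20.5 CPM on chow (median 12.3) and between 43.7 and 70.8 CPM on WTD (median 57.2). The groups were again fully apart, which was not counted over all tested genes, with a log2 fold change of 2.07 ± 0.11 (SE, adjusted p = 9.8e-22). WTD replicate 15, lowest for Il1rn, ranked 6 of 16 for Il18bp at 62.1 CPM.

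Il1r2, a decoy that binds IL-1 without signalling, had no count in 6 of 10 chow-fed and 6 of 16 WTD-fed mice and reached at most 1.13 and 3.34 CPM. The log2 fold change of 1.66 had a 95% interval from -0.34 to 3.66 (adjusted p = 0.178). Without the sparse libraries it was 1.08 (adjusted p = 0.403).

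Markers of other cells moved in the same comparison, in which 17.5% of all tested genes were called higher and 16.0% lower. The summed macrophage markers had a range of 216 to 324 CPM on chow and 1130 to 2530 CPM on WTD, and 6 of 7 rose while 1 fell. Neutrophil markers went from a median of 10.9 to 28.4 CPM (3 of the 4 that could be tested rose), monocyte markers from 19.3 to 61.2 CPM and stellate cell markers from 418 to 1110 CPM. All 6 hepatocyte markers fell, from a median sum of 116000 to 61900 CPM. Every marker of these lists had counts. Their part in the changes of the IL-1 family was not tested.

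**Figure D3:**
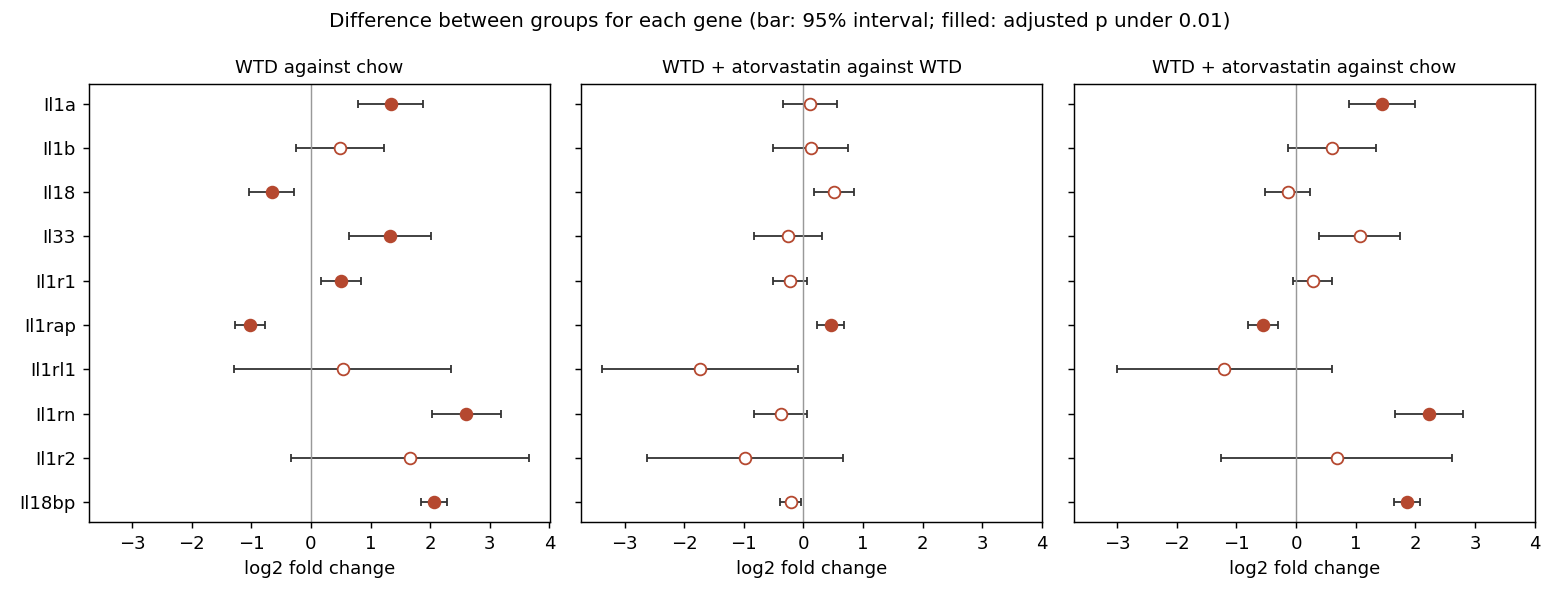
Log2 fold change of each gene with its 95% interval in the 3 comparisons, filled where the adjusted p was under 0.01. On WTD against chow 5 genes were higher and 2 lower, while with atorvastatin against WTD only Il1rap passed. The comparisons with chow share the chow-fed mice.

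The balance of inhibitor and ligand was described as a log2 ratio of counts within each mouse (0.5 added to each count), without a test. These counts were not divided by exon length (5.54 kb for Il1rn, 1.91 kb for Il1b, 3.03 kb for Il18bp, 1.03 kb for Il18). The ratios therefore compare groups, and a value of 0 does not mean equal levels of both genes. Per length, Il1rn lay below Il1b on chow (1.01 ± 0.589 and 2.43 ± 1.26 CPM per kb). For Il1rn to Il1b the median was 0.45 on chow, 2.63 on WTD and 2.05 with atorvastatin. A count of 0 in 2 sparse libraries set the extremes of -7.95 on chow and 10.03 on WTD, and without sparse libraries the ranges were -0.46 to 2.27 on chow, 1.15 to 4.41 on WTD and 1.2 to 2.76 with atorvastatin. The groups of chow and WTD thus overlapped in this ratio.

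For Il18bp to Il18 they did not, and Il18bp alone also separated them. How many other gene pairs separate these groups was not counted. The log2 ratio lay between -1.05 and 1.11 on chow (median -0.42) and between 1.73 and 4.44 on WTD (median 2.39). In counts the median mouse had 0.748 Il18bp per Il18 on chow and 5.25 on WTD, since the inhibitor rose and the ligand fell. With atorvastatin the range was 0.63 to 2.61 (median 1.66, or 3.16 Il18bp per Il18), between both other groups and overlapping each of them. The decoy-to-receptor ratio of Il1r2 to Il1r1 stayed far below 0 in every group, with medians of -9.15 on chow, -7.22 on WTD and -6.54 with atorvastatin, and rested on counts near 0.

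**Figure D4:**
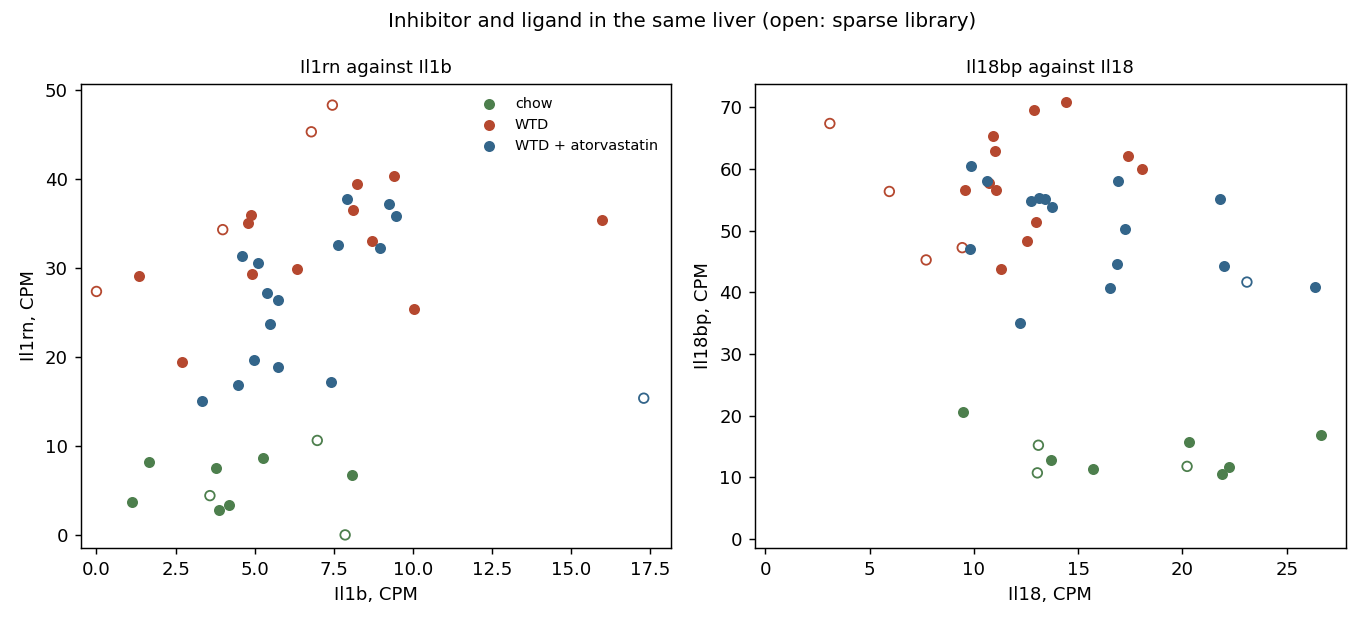
CPM of the inhibitor (vertical axis) against CPM of its ligand (horizontal axis) in each liver, for Il1rn with Il1b and for Il18bp with Il18, with open circles for sparse libraries. For Il18bp and Il18 the chow-fed mice lie low on the vertical axis (10.6 to 20.5 CPM) and apart from both WTD-fed groups. The share of all tested genes with such a separation was not counted.

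The second comparison, WTD + atorvastatin with WTD, asked what the statin changed on the same diet. Of the 10 genes 1 was called higher and 0 lower, against 7.10% of all tested genes (4.84% higher and 2.26% lower). This was Il1rap, which was 1.38-fold higher with atorvastatin. The remaining genes had adjusted p values between 0.0293 (Il18) and 0.883 (Il1b). Il1rn and Il18bp, the genes that had risen most on the WTD, had lower means with atorvastatin without passing, and Il1a and Il1b had mean levels 1.08 and 1.09 times those on WTD.

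Il1rap had between 47.0 and 114 CPM with atorvastatin (median 77.2), where the WTD-fed mice had a median of 50.1 CPM. Of the treated mice 15 of 16 lay above the WTD median, and the ranges overlapped. Treated mice exceeded WTD by a log2 fold change of 0.46 ± 0.11 (SE, adjusted p = 0.00334). It was 0.57 (adjusted p = 5.51e-06) without WTD replicate 15, the mouse with the highest level, and 0.41 (adjusted p = 0.0464) without the sparse libraries, where it no longer passed. For the antisense Gm20319 the log2 fold change was 0.20 (adjusted p = 0.161).

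Il18 had between 9.79 and 26.4 CPM with atorvastatin (median 15.1). Of the treated mice 13 of 16 lay above the WTD median and 4 above every WTD-fed mouse. The log2 fold change of 0.52 (95% interval 0.18 to 0.85) had an adjusted p of 0.0293 and did not pass. Without the sparse libraries, which include the 4 lowest WTD-fed mice, it was 0.29 (adjusted p = 0.205).

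The inhibitors were measured at 15.0 to 37.7 CPM for Il1rn (median 26.8) and 35.1 to 60.4 CPM for Il18bp (median 52.1). For each of them 13 of 16 treated mice lay below the WTD median. Il1rn had a log2 fold change of -0.38 (95% interval -0.83 to 0.07, adjusted p = 0.302). That of Il18bp was -0.21 (95% interval -0.39 to -0.04, adjusted p = 0.104). Neither passed under any alternative fit at 0.01, where the lowest adjusted p was 0.0136 for Il1rn and 0.0339 for Il18bp.

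Neither of the 2 IL-1 ligands passed the test. Il1a had between 10.6 and 19.4 CPM (median 12.6) and a log2 fold change of 0.11 (95% interval -0.35 to 0.56, adjusted p = 0.845). Il1b had between 3.33 and 17.3 CPM (median 5.73) and a log2 fold change of 0.12 (95% interval -0.51 to 0.75, adjusted p = 0.883). The highest Il1b came from the sparse library of this group (replicate 8), the next treated mouse had 9.48 CPM, and without that library the log2 fold change was -0.03. Without all sparse libraries it was -0.16.

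Il33 (2.37 to 9.28 CPM, median 5.03) had a log2 fold change of -0.25 (95% interval -0.82 to 0.32, adjusted p = 0.665). Il1r1 (23.2 to 54.6 CPM, median 34.7) had one of -0.23 (95% interval -0.51 to 0.06, adjusted p = 0.343), and 13 of 16 treated mice lay below the WTD median. Il1rl1 reached at most 0.832 CPM with atorvastatin, and 15 of 16 treated mice lay below the WTD median of 0.558 CPM. Its log2 fold change was -1.74 with an interval from -3.38 to -0.10 (adjusted p = 0.171). Il1r2 reached at most 0.938 CPM, with a log2 fold change of -0.98 (95% interval -2.62 to 0.67, adjusted p = 0.527).

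In this comparison, 4.84% of all tested genes were called higher and 2.26% lower. The macrophage marker sum went from a median of 2010 to 1140 CPM (4 of 7 markers fell). It was led by Lyz2, with a mean of 1100 CPM on WTD and 554 CPM with atorvastatin. The sum of lipid-associated macrophages went from 1410 to 790 CPM (3 of 6 fell and 0 were called higher). The hepatocyte sum went from 61900 to 100000 CPM, and 5 of its 6 markers rose. The part of these shifts in the values of Il1rap and Il18 was not tested.

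Against chow, the atorvastatin-treated mice showed what remained of the change. Of the 10 genes 4 passed, against 25.0% of all tested genes. Il1rn stayed 4.68-fold higher than on chow (log2 fold change 2.23 ± 0.28, SE, adjusted p = 2.6e-08) and Il18bp 3.62-fold higher (1.86 ± 0.11, SE, adjusted p = 1.41e-19). Il1a was 2.72-fold higher (1.45 ± 0.27, SE, adjusted p = 3.12e-05). Each of these 3 genes separated all 16 treated mice from all 10 chow-fed mice. How many of all tested genes did the same was not counted. Il1rap was still 1.47-fold lower (log2 fold change -0.56 ± 0.13, SE, adjusted p = 0.000414), and 13 of 16 treated mice lay below every chow-fed mouse.

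Il33 stood at a log2 fold change of 1.07 against chow (adjusted p = 0.0105), just above the threshold, and passed without the sparse libraries (adjusted p = 0.00256), with DESeq2 (adjusted p = 0.00214) and with limma-voom (adjusted p = 0.000268). Il1r1 had one of 0.28 (adjusted p = 0.19) and of 0.55 (adjusted p = 0.00073) without chow replicate 5. Il18 lay near the chow level, with a log2 fold change of -0.14 (95% interval -0.52 to 0.24, adjusted p = 0.609), and Il1b at 0.61 (95% interval -0.13 to 1.34, adjusted p = 0.209). Il1r2 (0.68, adjusted p = 0.631) and Il1rl1 (-1.20, adjusted p = 0.319) had intervals that spanned more than 3 log2 units.

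In WTD replicate 15 the members did not all stand at the same end of the group. This mouse had the lowest Il1rn of the WTD-fed mice, the second lowest Il1r1 (28.3 CPM) and the highest Il1rap, while its Il1a (16.1 CPM) ranked 3 of 16 and its Il18 (17.4 CPM) ranked 2 of 16. Its Il1b was 2.71 CPM, where the other WTD-fed mice had a median of 6.79 CPM. Without it the same 7 genes were called on WTD against chow.

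Relations between partners were examined among the mice of each group, for 5 pairs in 3 groups (15 relations). None passed the correction, with a smallest adjusted permutation p of 0.571 for Pearson's r and 0.388 for Spearman's rho. For Il1b with Il1rn, r was -0.28 on chow (rho 0.01, n = 10), 0.37 on WTD (rho 0.42) and 0.21 with atorvastatin (rho 0.45). In the atorvastatin group r was 0.56 without the 2 mice farthest from the median of Il1b (permutation p = 0.041, adjusted 0.549) and 0.67 without the sparse library (permutation p = 0.00724, adjusted 0.109). For Il18 with Il18bp, r was -0.29 on chow (rho -0.10), 0.02 on WTD (rho 0.25) and -0.39 with atorvastatin (rho -0.40). The ligand pair of Il1a with Il1b gave r = 0.50 with atorvastatin (permutation p = 0.0468, adjusted 0.571), which fell to 0.19 without the 2 farthest mice.

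The genes most like each member among 10923 genes with a mean of at least 100 counts were found from Spearman's rho of log2 CPM after each group's mean was removed, over all 42 mice. The points share libraries and depth, and the values are a description. For Il1rap they were Sult2a8 (rho 0.846), a sulfotransferase, Rgn (0.842), which encodes regucalcin, and Cfhr2 (0.806), a factor H-related complement gene, all genes of hepatocytes. For Il18 they included Sc5d (0.726), a late enzyme of cholesterol synthesis, and Tmem14c (0.709). For Il1rn they were Gpr137b (0.788), a lysosomal membrane protein, Lcn2 (0.777), which encodes lipocalin 2, and Pla2g7 (0.759), which encodes platelet-activating factor acetylhydrolase. The likeness of the others was weaker. It was led by Steap4 for Il1r1 (0.731), Rb1 for Il1a (0.704), Slc13a5 for Il33 (0.691), Themis2 for Il18bp (0.679), Trim68 for Il1b (0.623), Atp2b1 for Il1rl1 (0.61) and Cep295 for Il1r2 (0.574).

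The surrounding pathway was followed in 5 lists. Of 11 other ligands and receptors of the family, Il36rn could not be matched to a symbol of the annotation and was not examined. Of the rest, 5 had enough counts and 0 passed in any of the comparisons with edgeR. Between WTD and chow, Sigirr, a receptor that dampens IL-1 signalling, was measured at -0.36 on the log2 scale (adjusted p = 0.0158). Il1f9, which encodes IL-36 gamma, had one of 2.78 (adjusted p = 0.0338). DESeq2 also gave 0, limma-voom gave 3 on WTD against chow and 3 with atorvastatin against chow, and the fit without the sparse libraries gave 2 on WTD against chow. Over all genes limma-voom called 3408 higher and 3101 lower of 15574 on WTD, and 2814 and 2160 with atorvastatin against chow. The fit without the sparse libraries called 2951 and 2590 of 15877 on WTD. The subunits of the IL-18 receptor, Il18r1 and Il18rap, had log2 fold changes of 0.27 and 0.37 (adjusted p = 0.722 and 0.7).

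Of 15 genes of IL-1 processing and release, 13 were tested, and on WTD 8 were higher and 0 lower (61.5% against 33.5% of all tested genes, median log2 fold change 1.07 against 0.03). Casp1, which cleaves both precursors, rose by 1.60 ± 0.23 (SE, adjusted p = 1.15e-07) and Capn2, a subunit of the calpain that processes IL-1 alpha, by 0.44 ± 0.07 (SE, adjusted p = 2.56e-07). The sensor Nlrp3 rose by 1.69 (adjusted p = 0.000459) and the adaptor Pycard by 1.29 (adjusted p = 0.000739), while Casp8 stood at -0.04 (adjusted p = 0.798). With atorvastatin against WTD 0 passed with edgeR, 2 with DESeq2 and 3 with limma-voom. Over all tested genes, edgeR called 754 higher and 352 lower of 15574, and limma-voom 1835 and 1310 of the same. DESeq2 called 706 and 689 of 26492. In this list the smallest p with edgeR belonged to Capn2 (log2 fold change -0.20, adjusted p = 0.0125) and Casp4 (-0.56, adjusted p = 0.0273).

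Of 25 genes of IL-1 receptor signalling, 24 were tested, and on WTD 8 were higher and 2 lower (41.7%, near the 33.5% of all tested genes, median log2 fold change 0.16). The largest rises were those of inhibitors of the pathway, Tnfaip3 (3.12 ± 0.30, SE, adjusted p = 8.09e-12), which encodes A20, and Irak3 (2.56 ± 0.47, SE, adjusted p = 1.15e-05), a kinase-dead relative of the IRAK kinases. Nfkb2 rose by 1.17 (adjusted p = 9.55e-11), and Chuk, which encodes IKK alpha, fell by 0.72 (adjusted p = 1.26e-10). With atorvastatin Chuk rose by 0.33 (adjusted p = 0.00116) and Nfkb2 fell by 0.43 (adjusted p = 0.00433). Myd88 had a count of 0 throughout and lies wholly inside Slc22a14 on the same strand, and of 376 protein-coding genes placed so, 373 had no count, so its level was not measured.

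Of 18 genes known to respond to IL-1, 15 were tested. On WTD 10 were higher and 0 lower (66.7% against 33.5% of all tested genes, median 1.69), with Vcam1 (1.81 ± 0.15, SE, adjusted p = 3.13e-14) and Icam1 (1.35 ± 0.12, SE, adjusted p = 5.36e-14), 2 adhesion molecules, at the smallest p. With atorvastatin 4 were lower and 0 higher (26.7% against 7.10% of all tested genes, of which 2.26% were lower, median -0.62), among them Saa3, an acute phase gene (-1.08 ± 0.20, SE, adjusted p = 0.00018), and Cebpd, a transcription factor of that response (-0.83 ± 0.17, SE, adjusted p = 0.000529). These genes also respond to other cytokines. Against chow the treated mice had 7 higher and 1 lower gene of processing, 5 and 1 of signalling and 9 and 0 of the responsive genes. These are 61.5%, 25.0% and 60.0% of the tested genes of each list, where 25.0% of all tested genes were called, so the signalling list stood at the background. In the list of type 2 responses downstream of IL-33, 8 of 13 genes were tested. On WTD 1 was higher and 1 lower (25.0% against 33.5% of all tested genes). With atorvastatin against WTD 1 was higher and 0 lower (12.5% against 7.10% of all tested genes). Il13ra1, a receptor chain for IL-13, rose by 0.46 on WTD (adjusted p = 0.00017). Arg1, in liver mainly a urea cycle enzyme of hepatocytes, fell by 0.93 on WTD (adjusted p = 3.23e-09) and rose by 0.62 with atorvastatin (adjusted p = 6.03e-05).

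**Figure D5:**
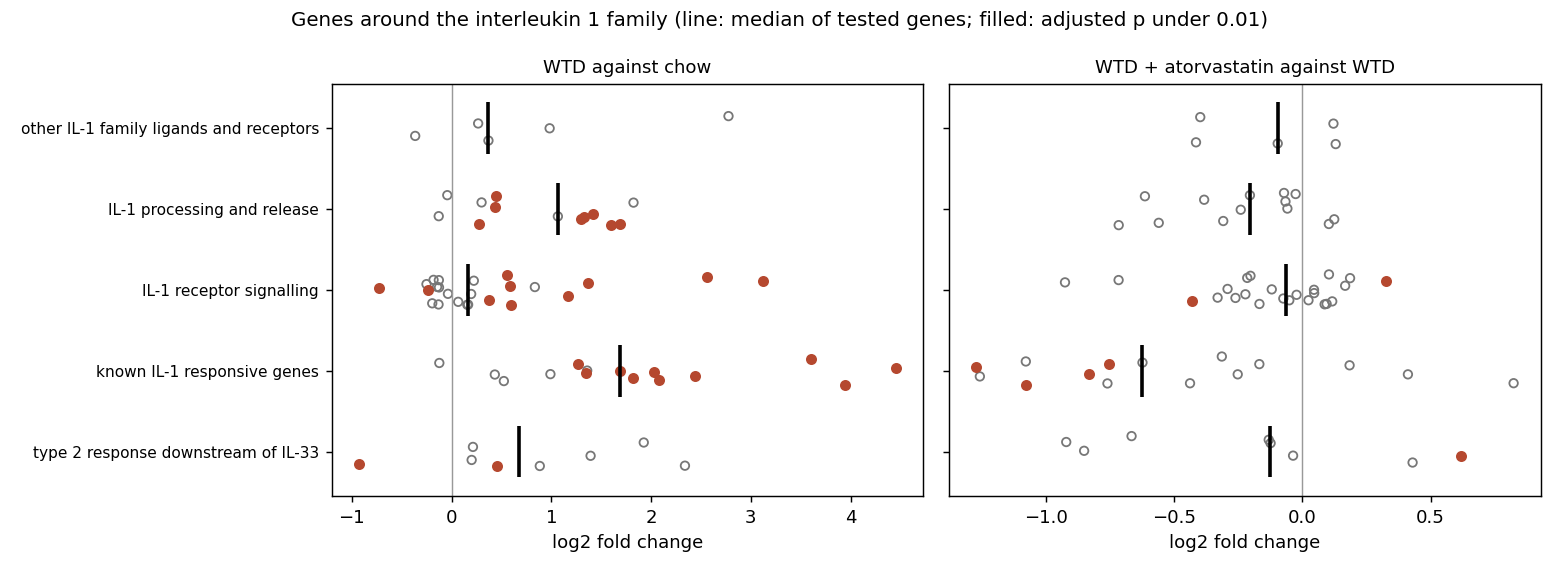
Log2 fold change of each tested gene of the 5 lists (points, filled where the adjusted p was under 0.01) and the median of the list (line), for WTD against chow and for WTD + atorvastatin against WTD. For the IL-1 responsive genes the line lies at 1.69 in the first comparison and at -0.62 in the second.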

How the data were processed

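Liver RNA of 42 female APOE*3-Leiden mice in 3 groups was measured by strand-specific mRNA sequencing. Per the labels and the methods, the authors trimmed the reads with Trimmomatic, aligned the pairs to GRCm38 (STAR 2.5) and obtained gene counts from HTSeq 0.6.1p1. The authors deposited the counts without normalization, and the table of all mice was identical to the 42 single tables. The strand setting of the counting is not given in the sources used here, but 373 of 376 protein-coding genes inside another gene on the same strand had no count, and 396 of 537 inside one on the opposite strand had counts. Reads in no gene (mean 2.28%), ambiguous reads (5.95%) and reads with several positions (4.68%) were left out.

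Weak genes were removed by filterByExpr (a minimum count of 10 and total of 15). After TMM scaling, edgeR 4.0.16 (R 4.3.3) fitted all 42 mice at once without a covariate, and groups were compared by its robust quasi-likelihood F test. P values were adjusted by Benjamini-Hochberg over 15574 genes and called under 0.01. Only the edgeR fit was tested on simulated counts, in which no library was made sparse. Total counts had medians of 20405093.5 (chow), 21095129 (WTD) and 18180048.5 (WTD + atorvastatin), and all limits from counts of 0 cover counting error only. Relations between mice used 100000 permutations, two-sided, on log2 CPM with a pseudocount of 0.5 counts. Symbols, positions and exon lengths came from GENCODE vM21, a later release than the authors used (54409 of 54446 identifiers matched), promoters from RefSeq, where all 10 genes had an entry.

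The genes named are the 10 members, the 2 genes with the smallest p per list and comparison, the leading marker of each cell type and the 3 genes most like each member, of which 1 is not reported here. Casp8, Nlrp3, Pycard, Irak3, Il18r1, Il18rap, Il4, Il5, Il13, Gm14023, Gm20319 and Myd88 were named after their values were seen. The members and lists were chosen with earlier results of these data known. Alternatives were DESeq2 1.42.0, limma-voom (limma 3.58.1) with sample weights, RLE and upper-quartile scaling, other filters, no robust estimation, an adjusted p under 0.05, fits of 2 groups, no sparse libraries, the share of missing weak genes as a covariate, and leaving out each mouse. Python 3.11.15 with scipy 1.17.1 was used for summaries.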

Additional observations from a re-analysis of the deposited data

Results flagged for a closer look

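In chow replicate 5, Il1r1 had 74.8 CPM while the next chow-fed mouse had 37.9 CPM, a gap of 0.639 of the range of the group. In the same library Il1rl1 had 2.83 CPM, with 0.473 CPM in the next chow-fed mouse and a gap of 0.833 of the range. Both genes lie in the receptor cluster on chromosome 1, and Il1r2 of the same cluster had 0 CPM in this library. The library is one of the 8 sparse ones, and 46.4% of the weakly expressed genes had no count in it. It was also the highest chow-fed library for summed monocyte markers (31.8 CPM against 15.6 to 26.6 CPM) and T cell markers (17.5 CPM against 2.5 to 16.6 CPM). Only the chow group was small enough for this check, which covered 10 genes, and chance alone marks about 1 in 20 such groups. That rate is for values that follow a normal distribution. Il1rl1 had no count in 7 of 10 chow-fed mice, so the rate need not hold for it. The part of the sparse counts in the values of Il1r1 and Il1rl1 was not tested.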

How the results depend on the processing

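The calls of Il1a, Il1rn, Il18bp, Il1rap, Il18 and Il33 on WTD against chow held under all of the 10 or 11 alternatives that could fit the gene. The number of genes called was 7 on WTD against chow, 4 when at least 10 counts were required in every mouse (a filter that several of these genes could not pass), and 5 to 7 when each mouse was left out in turn. With atorvastatin against WTD it was 1, with 2 at an adjusted p under 0.05, 0 without the sparse libraries, and 1 in each of the fits that left out a mouse. With atorvastatin against chow it was 4, with 2 when at least 10 counts were required in every mouse, and 4 to 6 when each mouse was left out. Genes called in the 5 lists with atorvastatin against WTD numbered 7, with 11 under RLE scaling, 14 with DESeq2 and 19 with limma-voom. Over all genes, RLE scaling gave 582 higher and 479 lower calls in that comparison, and upper-quartile scaling 645 and 430. DESeq2 gave 706 and 689 and limma-voom 1835 and 1310, where edgeR with TMM gave 754 and 352. The cause of these shifts was not tested.

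Some log2 fold changes that had not passed turned sign. With atorvastatin against WTD, Il1a was -0.02 without the sparse libraries and -0.0025 with the share of missing genes as a covariate, and Il1b was -0.16 without the sparse libraries and -0.03 to 0.27 when each mouse was left out. With atorvastatin against chow, Il1r2 was -0.02 with that covariate, and Il1rl1 was 0.30 without the sparse libraries, 1.03 with limma-voom and -1.63 to 0.55 when each mouse was left out. No paired analysis was possible because a number shared between chow-fed and WTD-fed mice in the labels (AZ# and Gen#) names different animals, and the replicate numbers used here only follow the order of the samples. Il1r2 and Il1rl1 had a count of 0 in many mice, which limits what can be said of them. Il1r1 on WTD against chow was called in 8 of 11 alternatives.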
